A study of Mus musculus with 26 samples.

Results

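The mRNAs described here are those of 10 genes that release fatty acids from stored fat or coat the lipid droplet in brown fat. They are the lipases Pnpla2, Lipe and Mgll, the lipase regulators G0s2 and Abhd5, the droplet coat genes Plin1, Plin2, Plin4 and Plin5, and the droplet fusion gene Cidea. They were taken by name, with earlier results of these data known, and are 10 of 9378 genes measured. All 10 are listed in one deposited table, called the IgG table here, and 8 of them among the 1189 genes of the other, called the knockout table. How these 1189 genes were chosen is not stated in the sources used here. Scaling, adjustment, ranks and shares of all genes in the knockout table rest on that set. Mgll and Abhd5 have values in the IgG table and were not analysed in the knockout table.

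Triglyceride in a fat cell lies in droplets behind a coat of perilipins, and lipolysis removes its fatty acids one after another. ATGL (the product of Pnpla2) takes the first fatty acid, hormone-sensitive lipase (Lipe) the next and monoglyceride lipase (Mgll) the last. Abhd5 encodes CGI-58, which activates ATGL, and G0s2 encodes a small protein that inhibits it. In brown fat the released fatty acids feed and activate the uncoupling protein Ucp1, and cold drives the whole sequence through noradrenaline and protein kinase A. IMP2, the product of Igf2bp2, binds many mRNAs and influences how they are translated.

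Brown fat came from male mice of 10 weeks on normal chow, all on a C57Bl/6J background and all held at 4 °C overnight, so no library measures unexposed animals. The knockout table has 2 libraries in each of 4 groups, namely IMP2 immunoprecipitates and total RNA of Imp2-/- mice (KO), and IMP2 immunoprecipitates and total RNA of wild-type (WT) mice, which are littermates from crosses of heterozygotes. The IgG table has 1 WT IMP2 immunoprecipitate, 1 WT immunoprecipitate made with IgG, an antibody with no chosen target, and 2 WT total RNA libraries. An IMP2 immunoprecipitate from a mouse without IMP2 and an IgG immunoprecipitate both measure RNA that is carried along without binding to IMP2. Nothing in the labels says that libraries of one group came from different animals, and the p-values rest on a spread between libraries that may be technical. Libraries are called by their sample numbers.

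Each library holds 780333 to 4916160 counts over the listed genes. Levels are given as CPM, a gene's share of the listed counts on a common scale after TMM scaling, which assumes that most genes do not differ. Transcript lengths were not used here, so the 10 genes are not ranked against each other by level, and CPM of the 2 tables differ because the tables list different genes. Igf2bp2 is not among the genes of the knockout table, and the KO label was not checked against its mRNA. Of 10 brown adipocyte markers, 6 are in the knockout table, Ucp1 among them, and their summed level was 14231 to 20926 CPM in all 8 libraries. The sum over skeletal muscle markers (8 of 12 listed) varied far more, at 363 and 1384 CPM in KO immunoprecipitates, 596 and 2470 CPM in KO total RNA, 1540 and 7248 CPM in WT immunoprecipitates and 2701 and 10515 CPM in WT total RNA. In bulk tissue, fewer cells of a type and less RNA per cell cannot be told apart.

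In RefSeq's GRCm38.p6, the assembly known as mm10, the genes lie apart on 7 chromosomes except for 1 adjacent pair, Plin4 (chr17:56100587-56109948, minus strand) and Plin5 (chr17:56111597-56117606, minus strand). Chromosome 7 holds Pnpla2 (chr7:141455188-141460743, plus strand), Lipe (chr7:25379527-25398486, minus) and Plin1 (chr7:79721164-79732904, minus). G0s2 lies at chr1:193272160-193273188 (minus), Plin2 at chr4:86626910-86670217 (minus), Mgll at chr6:88724412-88828360 (plus) and Abhd5 at chr9:122351616-122381524 (plus), and Cidea lies on a chromosome that holds no other of the 10.

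The promoters of 3 genes are shown because these mRNAs, G0s2, Plin4 and Plin5, are the ones called higher in an IMP2 immunoprecipitate than in total RNA. RefSeq's promoter table (GRCm38.p6) matched 9 of the 10 genes with 12 promoters, all but Cidea. Each line gives the 250 bases before a transcription start, on the gene's own strand, 5′ to 3′, and capitals mark matches on either strand to TATAA (the TATA box core), AGGTCA (a nuclear receptor half-site), TGACG (a cAMP response half-site), CACGTG (an E-box) or CCAAT (the CCAAT box). These motifs do not overlap in the lines shown and were chosen with the sequences in view. The windows lie at chr1:193273189-193273438 (G0s2), chr17:56109783-56110032 (Plin4) and chr17:56117549-56117798 (Plin5), all on the minus strand.
G0s2: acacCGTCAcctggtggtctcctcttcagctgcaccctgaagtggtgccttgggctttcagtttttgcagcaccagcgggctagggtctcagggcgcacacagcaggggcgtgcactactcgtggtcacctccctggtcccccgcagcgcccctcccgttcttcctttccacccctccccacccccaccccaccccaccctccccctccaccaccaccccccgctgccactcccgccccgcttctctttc
Plin4: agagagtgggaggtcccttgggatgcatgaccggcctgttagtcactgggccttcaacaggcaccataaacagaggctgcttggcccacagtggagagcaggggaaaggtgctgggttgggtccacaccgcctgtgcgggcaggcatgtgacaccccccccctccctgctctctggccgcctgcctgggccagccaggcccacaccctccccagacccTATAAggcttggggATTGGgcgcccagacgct
Plin5: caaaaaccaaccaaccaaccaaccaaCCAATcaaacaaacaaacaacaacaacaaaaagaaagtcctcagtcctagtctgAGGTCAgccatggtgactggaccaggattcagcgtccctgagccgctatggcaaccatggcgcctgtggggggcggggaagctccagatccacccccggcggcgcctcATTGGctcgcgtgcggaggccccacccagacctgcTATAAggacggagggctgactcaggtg
Plin4 and Plin5 are neighbours on chromosome 17, 1648 bases apart, and transcribed in the same direction. Both hold TATAA on the sense strand, beginning 32 bases before the Plin4 start and 27 bases before the Plin5 start. Of 32851 promoters, 22.8% hold TATAA on either strand within these 250 bases, and 3.52% hold it on the sense strand 20 to 40 bases before the start. G0s2 has no TATAA in its window. AGGTCA, found in 14% of promoters, lies 170 bases before the Plin5 start. Of the Plin4 and Plin5 windows, 84 and 192 bases lie outside the gene's annotated span, and the remainder overlaps that span. No deposited value measures promoters, and these matches are a description of the letters.

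G0s2 showed the highest recovery of the 8 genes in both genotypes. In KO mice it had 1412 and 1208 CPM in immunoprecipitates, against 606 and 687 CPM in total RNA. In WT mice it had 1091 and 719 CPM in immunoprecipitates, against 502 and 380 CPM in total RNA. In neither genotype did the groups overlap, and KO total RNA was close to the lower WT immunoprecipitate. G0s2 rose in the immunoprecipitate by log2 1.02 ± 0.209 (SE) in KO mice, with an adjusted p of 0.00971, and by 1.04 ± 0.213 in WT mice, with an adjusted p of 0.0107 (edgeR's quasi-likelihood test with Benjamini-Hochberg adjustment over 1189 genes). It stood at rank 9 of 1189 in KO mice and rank 11 in WT mice, counted from the highest recovery. By the same edgeR test the KO call was lost without KO total library 18, with an adjusted p of 0.0661. The WT call was lost without WT total library 17, with an adjusted p of 0.0642 by edgeR, or without WT immunoprecipitate 21, with 0.0645.

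**Figure D1:**
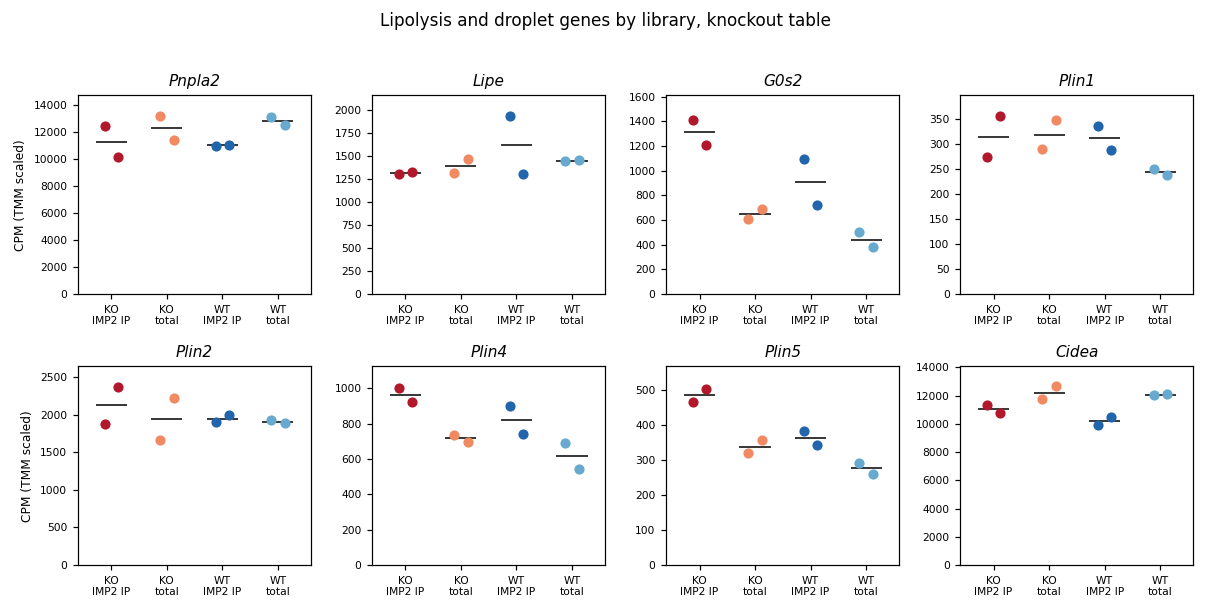
Level of each gene in the 8 libraries of the knockout table, in TMM-scaled CPM on axes that start at 0. Points are libraries, 2 in each group, and lines are group means. G0s2 is highest in KO immunoprecipitates (1208 and 1412 CPM), and Plin4 and Plin5 are higher in immunoprecipitates than in total RNA within each genotype, while Lipe and Plin2 overlap between groups.

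Plin5, a perilipin of tissues that burn fat which tethers droplets to mitochondria, had 466 and 505 CPM in KO immunoprecipitates, against 319 and 359 CPM in KO total RNA. In WT mice it had 384 and 345 CPM in immunoprecipitates, against 291 and 262 CPM in total RNA. The groups did not overlap in either genotype. Plin5 rose by log2 0.52 ± 0.144 in KO mice (adjusted p = 0.0304), while its WT value of 0.40 ± 0.147 did not pass (adjusted p = 0.0833, edgeR quasi-likelihood). The KO call was lost on leaving out any 1 of the 4 KO libraries, with adjusted p of 0.0518 to 0.126.

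Plin4, a perilipin of adipocytes and muscle that coats nascent droplets, behaved like its neighbour in size but passed no test within the knockout table. It had 1000.1 and 924 CPM in KO immunoprecipitates, against 739 and 695 CPM in KO total RNA. WT immunoprecipitates had 903 and 744 CPM, against 694 and 543 CPM in WT total RNA. The groups were separate in both genotypes. Its log2 values were 0.42 ± 0.150 in KO mice and 0.41 ± 0.152 in WT mice, with adjusted p of 0.0677 and 0.0829 (edgeR quasi-likelihood). DESeq2 called Plin4 in KO mice and both Plin4 and Plin5 in WT mice, with adjusted p of 0.0129 for Plin4 in KO mice.

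Plin1, the main perilipin of fat cells, which holds Abhd5 until protein kinase A phosphorylates it, had 274 and 356 CPM in KO immunoprecipitates, against 290 and 348 CPM in KO total RNA. It had 337 and 289 CPM in WT immunoprecipitates, against 250 and 238 CPM in WT total RNA. The KO groups overlapped and the WT groups did not. Neither passed, at log2 -0.02 ± 0.168 in KO mice and 0.36 ± 0.174 in WT mice (adjusted p of 0.944 and 0.162, edgeR quasi-likelihood). The KO minus WT difference was -0.38 with a 95% interval of -0.93 to 0.17.

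Plin2, the perilipin found on droplets of most cell types, had 1878 and 2367 CPM in KO immunoprecipitates, against 1666 and 2223 CPM in KO total RNA. It had 1902 and 1992 CPM in WT immunoprecipitates, against 1931 and 1883 CPM in WT total RNA. The groups overlapped in both genotypes, and the log2 values were 0.13 ± 0.161 in KO mice and 0.03 ± 0.162 in WT mice, neither of which passed.

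Among the lipases, Pnpla2 had 12480 and 10160 CPM in KO immunoprecipitates, against 13251 and 11418 CPM in KO total RNA. It had 11001 and 11069 CPM in WT immunoprecipitates, against 13137 and 12556 CPM in WT total RNA. The WT groups did not overlap, with the immunoprecipitates lower, and the KO groups did. Its log2 values of -0.12 ± 0.193 in KO mice and -0.22 ± 0.193 in WT mice did not pass (adjusted p of 0.682 and 0.426, edgeR quasi-likelihood). Lipe had 1312 and 1329 CPM in KO immunoprecipitates, against 1314 and 1475 CPM in KO total RNA. It had 1934 and 1307 CPM in WT immunoprecipitates, against 1445 and 1462 CPM in WT total RNA, and library 21 alone stood high. Lipe passed in neither genotype, at log2 -0.08 ± 0.167 in KO mice and 0.16 ± 0.169 in WT mice.

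Cidea, which promotes exchange of lipid between droplets and is abundant in brown fat, had 11312 and 10742 CPM in KO immunoprecipitates, against 11750 and 12649 CPM in KO total RNA. It had 9883 and 10500 CPM in WT immunoprecipitates, against 12012 and 12128 CPM in WT total RNA. The immunoprecipitates were lower without overlap in both genotypes, but the log2 values of -0.15 ± 0.172 and -0.24 ± 0.172 did not pass (adjusted p of 0.569 in KO mice and 0.322 in WT mice, edgeR quasi-likelihood).

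Counted together, 2 of the 8 genes rose in KO immunoprecipitates and none fell, in a comparison where 26.3% of all 1189 genes were called and 10.6% were called higher. In WT immunoprecipitates 1 of 8 rose, where 22.4% of all genes were called and 9.92% called higher. Calls over all genes were 126 higher and 187 lower in KO mice, and 118 higher and 148 lower in WT mice, but with upper-quartile scaling 273 and 130 in KO mice and 214 and 94 in WT mice. The median log2 recovery of the 8 genes was 0.05 in KO mice and 0.26 in WT mice, and that of all genes was -0.01 and 0.01. Both immunoprecipitates stood above both total RNA libraries for 3 of the 8 genes in KO mice, against 32.6% of all genes, and for 4 of 8 in WT mice, against 32.2%. Both stood below for 1 of the 8 in KO mice and 2 in WT mice, and the share of all genes below was not counted. The sum over the adipocyte markers listed (Fabp4, Retn and Cfd, 3 of 8) was higher in immunoprecipitates as well. It was 31425 and 28865 CPM in KO immunoprecipitates, against 16807 and 17486 CPM in KO total RNA. WT immunoprecipitates had 28355 and 35259 CPM, against 16318 and 18935 CPM in WT total RNA. The sum over haemoglobin genes, 3 of the 7 erythroid markers, ran the other way. It was 1618 to 2734 CPM in the 4 immunoprecipitates and 3625 to 5038 CPM in the 4 total RNA libraries. In the IgG table the adipocyte sum (8 of 8 listed) was 14059 CPM with IMP2, 11979 CPM with IgG and 8617 and 9449 CPM in total RNA. The erythroid sum there (6 of 7 listed) was 2336 CPM with IMP2, 1306 CPM with IgG and 4672 and 3295 CPM in total RNA. The part of either marker set in the recovery of G0s2 or Plin5 was not tested.

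**Figure D2:**
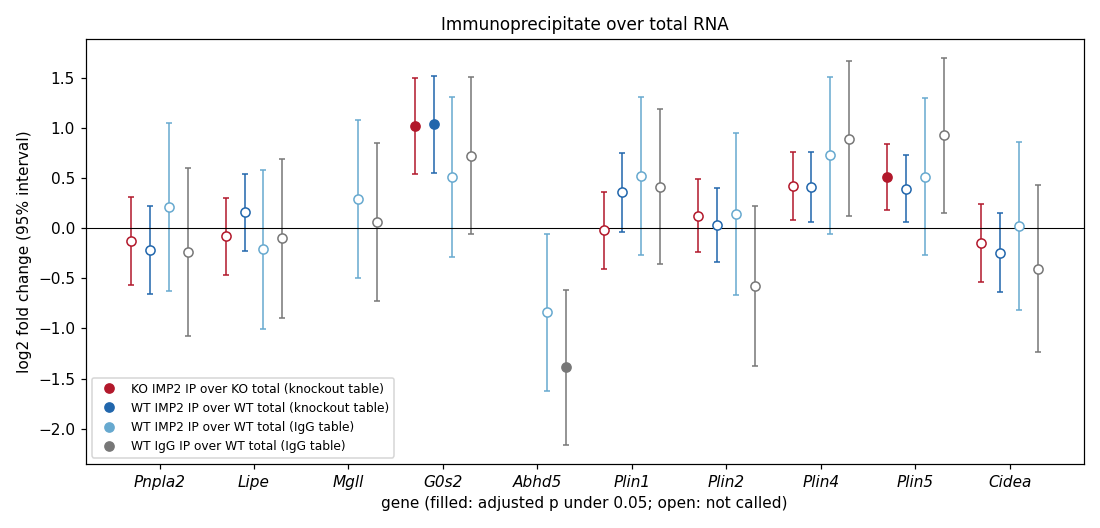
Log2 fold change of immunoprecipitate over total RNA for each gene, with 95% intervals from the edgeR models, in KO and WT mice of the knockout table and for IMP2 and IgG immunoprecipitates of the IgG table. Filled points passed an adjusted p of 0.05. G0s2 lies near 1 in both genotypes, and for Plin4 and Plin5 the IgG immunoprecipitate has values of 0.90 and 0.93.

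The IgG table shows how these mRNAs come down with an antibody that has no chosen target. G0s2 had 165 CPM in the IMP2 immunoprecipitate, 191 CPM in the IgG immunoprecipitate and 112 and 119 CPM in total RNA. Plin4 had 450 CPM with IMP2, 505 CPM with IgG and 245 and 296 CPM in total RNA. Plin5 had 240 CPM with IMP2, 319 CPM with IgG and 169 and 166 CPM in total RNA. For these 3 genes the IMP2 library lay below the IgG library and both lay above total RNA. Of all 10 genes, 4 lay above and 5 below both total RNA libraries with IgG, and 6 above and 2 below with IMP2. How many of all genes show such orders was not counted. The log2 values of IMP2 over IgG were -0.21 ± 0.463 for G0s2, -0.17 ± 0.459 for Plin4 and -0.41 ± 0.456 for Plin5, and none passed. The values of IgG over total RNA were 0.72 ± 0.399, 0.90 ± 0.397 and 0.93 ± 0.394 for the same genes in that order, and none passed (adjusted p of 0.383, 0.239 and 0.207, edgeR quasi-likelihood over 8966 genes).

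Plin1 had 241 CPM with IMP2, 224 CPM with IgG and 131 and 203 CPM in total RNA. Plin2 had 1667 CPM with IMP2, 1011 CPM with IgG and 1825 and 1188 CPM in total RNA. The Plin2 ratio of IMP2 to IgG was 1.65 in these libraries (95% counting interval 1.56 to 1.74), the highest of the 10, but with the spread between libraries the log2 value of 0.72 ± 0.474 did not pass (adjusted p = 0.863, edgeR quasi-likelihood). Counting intervals cover counting error only.

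Of the lipases, Pnpla2 had 5942 CPM with IMP2, 4342 CPM with IgG and 4896 and 5342 CPM in total RNA. These Pnpla2 counts are of a transcript that RefSeq annotates as non-coding. Lipe had 818 CPM with IMP2, 884 CPM with IgG and 955 and 934 CPM in total RNA. Mgll had 855 CPM with IMP2, 728 CPM with IgG and 849 and 544 CPM in total RNA. The log2 values of IMP2 over IgG were 0.45 (95% interval -0.52 to 1.42) for Pnpla2, -0.11 (-1.03 to 0.81) for Lipe and 0.23 (-0.68 to 1.14) for Mgll, and none passed. Cidea had 5659 CPM with IMP2, 4221 CPM with IgG and 4415 and 6723 CPM in total RNA, and its value of 0.42 ± 0.495 did not pass.

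Abhd5, the ATGL activator, was the only 1 of the 10 called lower by edgeR with all libraries in the model. It had 190 CPM with IMP2, 130 CPM with IgG and 438 and 242 CPM in total RNA. Both immunoprecipitates lay below both total RNA libraries. Abhd5 fell in the IgG immunoprecipitate by a log2 value of -1.39 ± 0.395 (adjusted p = 0.0482, edgeR quasi-likelihood), and its value with IMP2 over total RNA was -0.84 ± 0.401 (adjusted p = 0.595). The IgG call was lost with library-size scaling (adjusted p = 0.0918), with upper-quartile scaling (0.0624), with DESeq2 (0.197) and without WT IMP2 immunoprecipitate 25 (0.0514). Without WT total library 15 the Abhd5 value was -0.91, with no test.

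In the 4 libraries with the IgG control none of the 10 genes was called for IMP2 over IgG, where 0.201% of all genes were, none for IMP2 over total RNA, where 0.903% were, and 1 for IgG over total RNA, where 2.01% were. Of the 180 genes called there 137 were lower, but with library-size scaling 95 of 197. The IMP2 and IgG groups are 1 library each, assumed to vary as the total RNA libraries do, and the comparisons with total RNA share those libraries. In this fit the spread was pooled over all genes, so a gene's own total RNA libraries did not set its standard error. For IgG over total RNA it was 0.395 for Abhd5, whose total RNA libraries lay far apart, and 0.394 for Plin5, whose libraries lay close.

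**Figure D3:**
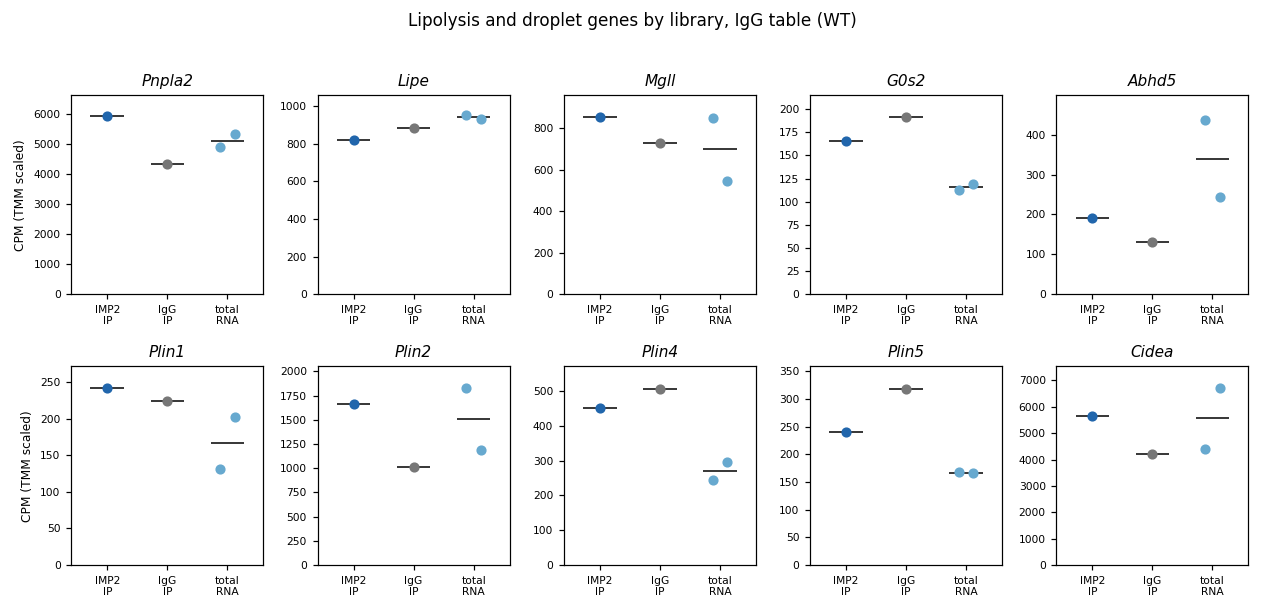
Level of all 10 genes in the 4 WT libraries of the IgG table, in TMM-scaled CPM on axes that start at 0. Points are libraries and lines are group means, with 1 IMP2 immunoprecipitate, 1 IgG immunoprecipitate and 2 total RNA libraries. For Plin4 and Plin5 the IgG library is the highest, and for Abhd5 both immunoprecipitates lie below total RNA.

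All 12 libraries of both tables were fitted in one model over the 1189 shared genes, with a term for the table, and in it 3 WT IMP2 immunoprecipitates stand against 4 WT total RNA libraries. For Pnpla2 and Lipe the model joined counts of a different transcript from each table. G0s2 rose in the IMP2 immunoprecipitate by log2 0.80 ± 0.195 (adjusted p = 0.0122), Plin4 by 0.49 ± 0.138 (0.0221) and Plin5 by 0.40 ± 0.110 (0.0204) by edgeR's quasi-likelihood test. These 3 of 8 compare with 28.5% of all genes called and 14.0% called higher (167 higher and 172 lower, but 278 and 116 with upper-quartile scaling). All 3 calls were lost without WT total library 17, with adjusted p of 0.0569 to 0.0849. The Plin4 and Plin5 calls were also lost without WT immunoprecipitate 21 (adjusted p of 0.077 and 0.081 by edgeR) and without WT immunoprecipitate 25 (0.145 and 0.0796). Against IgG none of the 8 was called, where 1.60% of all genes were. Plin5 came nearest, at log2 -0.69 ± 0.175 with the IMP2 immunoprecipitates lower (adjusted p = 0.0775, edgeR quasi-likelihood), and it was called by DESeq2 (adjusted p = 0.00329) and by edgeR without WT total library 20 (adjusted p = 0.0476).

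Loss of IMP2 was compared first in total RNA. G0s2, Plin1, Plin4 and Plin5 each had both KO libraries above both WT libraries, as had 21.4% of all genes, and the other 4 overlapped. The log2 values of KO over WT total RNA were 0.55 ± 0.211 for G0s2, 0.39 ± 0.170 for Plin1, 0.29 ± 0.145 for Plin5 and 0.21 ± 0.151 for Plin4. None passed, with adjusted p of 0.392 for G0s2 and 0.445 to 0.608 for the others (edgeR quasi-likelihood). For Pnpla2, Lipe, Plin2 and Cidea the values lay between -0.06 and 0.03, and the 95% intervals together reached from -0.50 to 0.41. At an unadjusted p under 0.05, 1 of the 8 genes (G0s2) and 11.1% of all genes passed, and after adjustment 0% of all genes did. DESeq2 called 35 of the 1189 genes and none of the 8. Skeletal muscle markers were lower in KO libraries, as given above, and their part in these differences was not tested.

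In the IMP2 immunoprecipitates, G0s2, Plin4, Plin5 and Cidea had both KO libraries above both WT libraries, as had 24.3% of all genes. KO over WT was log2 0.53 ± 0.211 for G0s2 (adjusted p = 0.237) and 0.41 ± 0.146 for Plin5 (adjusted p = 0.21), with no call by edgeR. Plin4 stood at 0.22 ± 0.151, Cidea at 0.11 ± 0.172 and Plin2 at 0.12 ± 0.162. Pnpla2 and Plin1 were near 0, at 0.04 ± 0.193 and 0.01 ± 0.172. Lipe was the lowest of the 8, at -0.30 ± 0.168. At an unadjusted p under 0.05, 2 of the 8 genes (G0s2 and Plin5) and 17.7% of all genes passed, and after adjustment 0% did. DESeq2 called 93 genes and none of the 8, with adjusted p of 0.0547 for G0s2 and 0.0692 for Plin5.

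**Figure D4:**
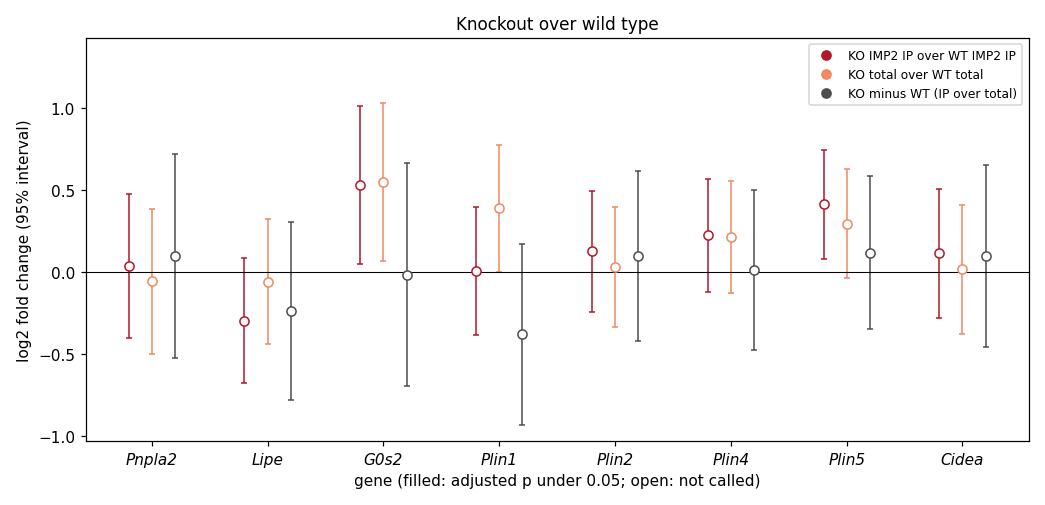
Log2 fold change of KO over WT for the 8 genes of the knockout table, in IMP2 immunoprecipitates and in total RNA, and the KO minus WT difference in recovery, with 95% intervals from the edgeR model. No point passed the threshold, and the recovery difference of G0s2 is -0.02 although its levels lie at 0.53 and 0.55.

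The difference in recovery between genotypes asks whether an mRNA came down less, relative to other mRNAs, when IMP2 was missing. A fall shared by most genes is removed by the scaling and cannot be seen in it. For G0s2 the KO minus WT difference was log2 -0.02 with a 95% interval of -0.70 to 0.66. For Plin5 it was 0.12 (-0.35 to 0.59) and for Plin4 it was 0.01 (-0.48 to 0.50). Lipe and Plin1 had the lowest values, -0.24 (-0.78 to 0.30) and -0.38. Pnpla2, Plin2 and Cidea each stood at 0.10, with intervals within -0.53 to 0.72. None of the 8 was called, and 0% of all genes were. None of the 8 and 2.44% of all genes had an unadjusted p under 0.05 (29 genes by edgeR, all with lower recovery in KO mice, and 0 called by DESeq2 after adjustment). The lower bounds ran from -0.35 for Plin5 to -0.93 for Plin1, so equal recovery was not shown for any of the 8.

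Counts within a library can be set against each other without scaling. Each gene is counted here by 1 transcript, for Pnpla2 by 1 of the 3 listed. There were 8.84 and 8.41 Pnpla2 counts per G0s2 count in KO immunoprecipitates, against 21.9 and 16.6 in KO total RNA. There were 10.1 and 15.4 in WT immunoprecipitates, against 26.2 and 33 in WT total RNA. Inhibitor mRNA thus stood higher relative to enzyme mRNA in both immunoprecipitates, and in KO over WT total RNA, with no overlap between the groups compared. In the IgG table another Pnpla2 transcript was counted, one that RefSeq annotates as non-coding. The ratio there was 36 with IMP2, 22.7 with IgG and 43.6 and 45.1 in total RNA. Plin5 counts per Plin1 count were 1.7 and 1.42 in KO immunoprecipitates, against 1.1 and 1.03 in KO total RNA, and 1.14 and 1.19 in WT immunoprecipitates, against 1.17 and 1.1 in WT total RNA. Plin1 counts per Plin2 count ran from 0.127 to 0.177 over the 8 libraries, and Lipe counts per Pnpla2 count from 0.0992 to 0.176. No test was run on ratios, and a ratio between genes of unequal length is not a ratio of molecules.

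**Figure D5:**
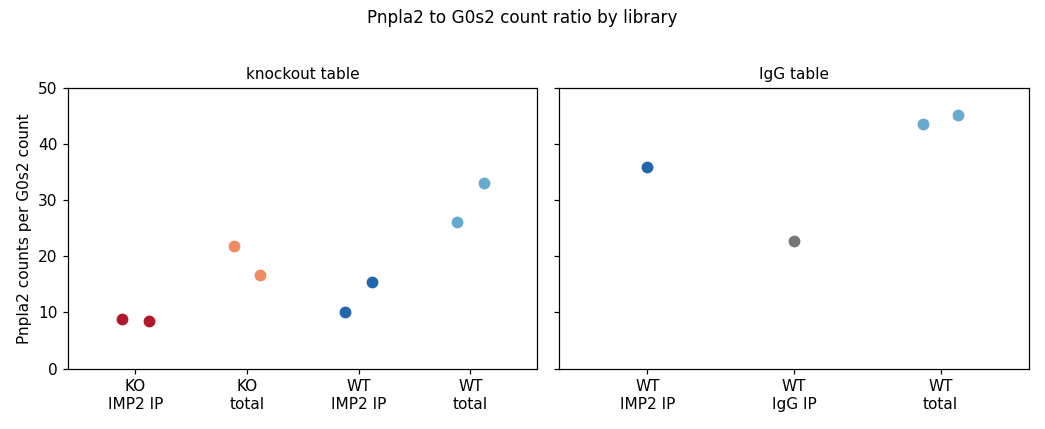
Pnpla2 counts per G0s2 count in each library of the knockout table (left) and the IgG table (right), on an axis that starts at 0. Each point is a library. KO immunoprecipitates have the lowest ratios, 8.41 and 8.84, and WT total RNA has the highest ones of each table.

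Other genes of the same pathway were read from lists made for this purpose. Of 26 other droplet proteins and lipases, 6 are in the knockout table and none was called in either genotype's recovery or between genotypes. In KO recovery these 6 ran from log2 0.33 ± 0.197 for Pnpla3, a relative of Pnpla2, to -0.51 ± 0.229 for Ptrf, a caveolar coat protein. The IgG table tested 19 of them. Vps13c had 21.7 CPM with IgG and 7.03 and 2.27 CPM in total RNA, and Fitm1 had 2.44 CPM with IgG and 35.8 and 17.4 CPM in total RNA. Vps13c, a lipid transfer protein, rose by log2 2.35 ± 0.659 in the IgG immunoprecipitate over total RNA (adjusted p = 0.0169), and Fitm1, a droplet-forming membrane protein of muscle, had -3.39 ± 0.698 and fell (adjusted p = 8e-04, edgeR quasi-likelihood). Skeletal muscle markers (12 of 12 listed) stood at 9517 CPM with IMP2, 6542 CPM with IgG and 17537 and 9506 CPM in total RNA, and their part in the Fitm1 value was not tested.

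Of 26 genes of beta-adrenergic and protein kinase A signalling, which switches lipolysis on, 4 are in the knockout table. The adenosine receptor Adora1, which restrains lipolysis in fat cells, rose in KO immunoprecipitates by log2 0.43 ± 0.122 (adjusted p = 0.031, edgeR quasi-likelihood), and no other was called. Its WT value of 0.23 ± 0.125 and its KO minus WT difference of 0.20 ± 0.174 did not pass. None of the 23 tested in the IgG table was called. There the values of IgG over total RNA were highest for Adcy6, an adenylyl cyclase, at 1.23 ± 0.413, and lowest for Prkar2a, a regulatory subunit of protein kinase A, at -1.71 ± 0.722.

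Among 14 genes that carry or use the released fatty acids and glycerol, 7 are in the knockout table. Fabp4, which carries fatty acids inside fat cells, rose by log2 1.06 ± 0.232 in KO immunoprecipitates (adjusted p = 0.0127) and by 1.01 ± 0.232 in WT immunoprecipitates (adjusted p = 0.0177), and none of the other 6 was called (edgeR quasi-likelihood). Ucp1 stood at 0.28 ± 0.269 in KO recovery and 0.72 ± 0.269 in WT recovery (adjusted p of 0.464 and 0.0878, edgeR quasi-likelihood), and its KO minus WT difference of -0.43 ± 0.380 did not pass. Of 12 genes of triglyceride re-synthesis, 2 are in the knockout table. Agpat6, a glycerol-phosphate acyltransferase, rose in KO immunoprecipitates by 0.44 ± 0.0972 (adjusted p = 0.0135, edgeR quasi-likelihood), and Dgat1, which makes triglyceride, stood at 0.21 ± 0.205. The WT value of Agpat6, 0.15 ± 0.098, and its KO minus WT difference, 0.29 ± 0.138, did not pass. Of 10 tested in the IgG table, Agpat2, which makes phosphatidic acid, had 25.2 CPM with IMP2, 36.1 CPM with IgG and 36.5 and 159 CPM in total RNA. It was called lower with IMP2 than in total RNA (log2 -1.99 ± 0.476, adjusted p = 0.0114, edgeR quasi-likelihood), but the total RNA libraries lay further from each other than library 15 lay from the IMP2 library. Of 13 transcription factors that control these genes, 1 is in the knockout table and 12 were tested in the IgG table, and none was called. For IMP2 over total RNA they ran from -0.32 ± 0.453 for Ppargc1b, a coactivator of mitochondrial genes, to 1.35 ± 0.398 for Cebpb, an early factor of fat cell development (adjusted p = 0.0512, edgeR quasi-likelihood). Between genotypes, no gene of any of the 5 lists was called.

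Genes whose mean profile over the 4 groups of the knockout table lay closest to each of the 8 were found by the root mean square difference of centred log2 CPM. For G0s2 the nearest were Dgkd and Trap1, at 0.142 and 0.16, the widest gaps among the 8. Profiles were not scaled for their range, which ran from -0.789 to 0.789 for G0s2 and from -0.0472 to 0.0981 for Plin2. A flat profile lies close to many others. The distances given here are smaller than the standard errors of the same genes' log2 recovery. Plin4 had Hspe1 at 0.025, and Plin5 had Por at 0.0147 and Pcyt2 at 0.0333. Plin4 and Plin5 were each other's nearest among the 8, at a distance of 0.072, Plin4 at rank 15 for Plin5 and Plin5 at rank 27 for Plin4. Pnpla2 and Cidea were likewise each other's nearest, at 0.0419. Close to Pnpla2 was Ywhab (0.0184), and the nearest to Cidea were Pepd (0.00283) and Pla2g16 (0.0222). Lipe had BC023814 (0.0188) and Mrpl24 (0.0199), Plin1 had Nat9 (0.037) and Stk16 (0.0378), and Plin2 had Sumo3 (0.00407) and Npepl1 (0.0175).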

How the data were processed

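The deposited values are whole-number read counts per RefSeq transcript with no scaling, as the authors supplied them in the pair of brown fat tables. The submitters' processing notes name TopHat2 2.0.8, Cufflinks 2.1.1 and the build mm10. How reads were assigned to transcripts is not given in the sources used here. From the series, the 14 liver samples of 26 were not analysed here. Transcripts without a symbol were named by accession from RefSeq (GRCm38.p6). The 3 and 22 left unnamed, with 8.65 to 29.2% and 7.39 to 15.8% of listed counts, stayed out. The share of 29.2% was that of WT total library 17, and the next highest was 17.6% in WT immunoprecipitate 22. Each gene is its transcript with the highest summed count, which for Pnpla2 and Lipe is not the same one in both tables. The Pnpla2 transcript of the IgG table is annotated as non-coding in RefSeq. None of the genes described shares its counts with another gene.

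Counts were scaled by TMM (the trimmed mean of M-values). Tests are the quasi-likelihood test of edgeR 4.0.16, run under R 4.3.3 after its filter on low counts, with Benjamini-Hochberg adjustment over all genes tested (1189, 8966 and 1189) and a threshold of 0.05. All groups of a table shared 1 model, with 4, 1 and 6 residual degrees of freedom for the knockout table, the IgG table and both. Replicate libraries are distinct: the chi-square between them divided by its degrees of freedom was 13.7 to 98.6. Counting intervals are at 95%. The models were run on simulated counts in which all genes of a table had the same spread. The outcome is not given here and is no check on the spread between these libraries. Alternatives were other scalings, no filter, DESeq2 1.42.0, summed transcripts and leaving out each library. The 10 genes, the lists and the tests were chosen with earlier results of these data known. The naming rule takes all 10 genes in each comparison and, from each list, up to 2 called rises and 2 called falls, or the highest and lowest where none passed. The text gives these for the main comparisons only, and which of the list values to print was decided after they were seen. Some genes of similar profile are not reported here.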

Additional observations from a re-analysis of the deposited data

Results flagged for a closer look

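Among the 4 WT total RNA libraries, set on a common scale over the genes listed in both tables, library 20 of the IgG table had 369 CPM of Plin1, far above the others, which had 230 to 242 CPM. On the same scale library 15 of the IgG table had 7929 CPM of Cidea, far below the others, which had 11652 to 12235 CPM. Of 8 groups of 4 libraries checked, these 2 had a single library that stood apart by Dixon's criterion, and chance marks about 1 in 20 such groups. The tables were made separately, and the scale set across them is a description.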

How the results depend on the processing

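No paired analysis was possible because the labels number the libraries through the whole series and groups share no number, nor is any immunoprecipitate matched to a total RNA library there. Skeletal muscle markers were higher in library 17 than 16 and in 22 than 21, and in 19 than 18 and in 24 than 23. Plin1, Plin4 and Plin5 kept sample order in this way in both genotypes. G0s2 and Cidea kept it in WT libraries only, and Pnpla2, Lipe and Plin2 in KO libraries only. If that order marks shared tissue, the unpaired standard errors hold spread that pairing would remove, and this was not tested. Of 1100 alternative values for the 86 tests of single genes, 18 lost a call, 13 gained one and none of the called ones changed sign, and 55 that were called in neither setting changed sign. Upper-quartile scaling and DESeq2 each called 3 of the 8 genes for WT recovery, against 1, while they called 308 and 395 of all 1189 genes, against 266. For KO recovery these 2 and library-size scaling each called 3 of the 8, against 2, with 403, 458 and 391 of all genes, against 313. For IgG over total RNA, library-size scaling, upper-quartile scaling, DESeq2 and leaving out library 25 called 0 of the 10, against 1. With both tables DESeq2 called 1 of the 8 for IMP2 over IgG, against 0. DESeq2 called 35 genes between total RNA of the genotypes and 93 between their immunoprecipitates, against 0 each. In the IgG table it called 4 for IMP2 over IgG, against 18 (32 with library-size scaling), 22 for IMP2 over total RNA, against 81, and 44 for IgG over total RNA, against 180. With both tables it called 111 for IMP2 over IgG, against 19. The causes were not tested.

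Leaving out 1 library at a time gave 93 (without WT total 16) to 260 genes and 0 to 1 of the 8 for WT recovery, and 135 (without KO immunoprecipitate 24) to 323 genes and 0 to 3 of the 8 for KO recovery. Between immunoprecipitates of the genotypes it gave 0 to 1 gene (without KO immunoprecipitate 23). With both tables it gave 192 (without WT immunoprecipitate 25) to 413 genes and 0 to 4 of the 8 for WT recovery, and 0 (without 25) to 50 genes (without WT total 20) and 0 to 1 of the 8 for IMP2 over IgG. Where a group then held 1 library, it was assumed to vary like the others.

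Scaling set the balance of directions. WT recovery had 118 genes higher and 148 lower with TMM, but 214 and 94 with upper-quartile scaling, and KO recovery had 126 and 187, but 273 and 130. The median of all genes moved by 0.14 and 0.17 on the log2 scale with it. G0s2, Plin4 and Plin5 stayed positive in both genotypes' recovery under every scaling. Ratios between genes within a library moved when the transcripts of a gene were summed. Pnpla2 has 3 transcripts listed, Lipe, Plin1 and Plin5 have 2 each, and G0s2 and Plin2 have 1 each. The part of each transcript was not tested.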
